A study of Mus musculus with 12 samples.

Results

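The genes described are 9 components of the hormone systems that set vascular tone and salt balance. They are Agt, Ace and Agtr1a of the angiotensin system, Edn1, Ednra and Ednrb of the endothelin system, the endothelial nitric oxide synthase gene Nos3, and the natriuretic peptide receptor genes Npr1 and Npr3. The set is a list of names whose rule uses no measured value, and it was drawn up with earlier results of these data known. Each was found by matching the Ensembl identifiers of the count tables to mouse gene symbols, so the set holds 9 of the 46983 genes counted. All 9 passed the filter on low counts, which left 14706 genes for testing.

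Angiotensinogen, the product of Agt, is cleaved by renin and then by angiotensin-converting enzyme to angiotensin II, which acts through its type 1 receptor to constrict vessels and to drive growth of heart muscle and fibroblasts. Endothelin 1 is released by endothelium and constricts smooth muscle through the type A receptor, while the type B receptor on endothelium clears endothelin and releases nitric oxide. Natriuretic peptides from the heart muscle oppose both systems through the guanylate cyclase receptor encoded by Npr1, and the receptor encoded by Npr3 takes them up and removes them.

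RNA was measured by 3′ RNA-seq in the left ventricle of 12-week-old offspring in 4 groups of 3 animals. The diabetic mothers were FVB females given streptozotocin, and the fathers were free of diabetes and carried a global heterozygous null allele of Hif1a, which encodes the oxygen-regulated subunit of the transcription factor HIF-1. The groups were Wt from non-diabetic pregnancy (animals 25, 42 and 89), Wt from diabetic pregnancy (50, 7 and 80), Hif1a+/- from non-diabetic pregnancy (14, 32 and 44) and Hif1a+/- from diabetic pregnancy (66, 72 and 77). All 4 groups had an FVB mother without the mutation and a heterozygous father, and the allele was present in every cell of the Hif1a+/- animals. The methods place the 3 animals of a group in more than 1 litter, and a figure legend in different litters, without naming them. P-values therefore measure the spread between these animals. The matings gave pups of both genotypes, so Wt and Hif1a+/- animals from the same kind of pregnancy may share a mother. The fit treats all 12 animals as independent. The 12 libraries held 16132442 to 39812939 reads assigned to genes, and the lowest count of any of the 9 genes in any library was 48. No replicate pair had counts as close as sampling noise, since the chi-square per gene was 6.16 or more. The labels call the animals female and the design text calls them male. Y-linked transcripts exceeded Xist in 11 of 12 libraries, and the library of diabetes-exposed Hif1a+/- animal 72 showed the reverse, so values without it are given beside results that rest on it. Hif1a itself measured 78.8 to 89.4 CPM in non-diabetic and 64.8 to 81.5 CPM in diabetic Hif1a+/- ventricles, against 47.9 to 71.8 CPM in Wt, so its level was higher and not lower in Hif1a+/- (log2 fold change 0.43 ± 0.09, edgeR adjusted p = 0.596). DESeq2 called this genotype difference (adjusted p = 0.0314) and the difference among the 4 groups (adjusted p = 0.00632), and limma-voom called neither (adjusted p = 0.155 and 0.142). Which part of the gene the null allele lacks was not given in the sources used here, and a read from the 3′ end outside the deleted part is no check of the genotype labels. The 6 cardiomyocyte markers summed to 66644 CPM or more in every library, and no defining marker of this list was at 0.

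Levels are given as CPM, the reads of a gene scaled to a common library size, after TMM scaling of library sizes. They describe 1 gene across animals and are not compared between genes, because 3′ reads were not scaled for capture. Changes are log2 fold changes from a quasi-likelihood fit of all 12 libraries in edgeR, with Benjamini-Hochberg adjustment over all 14706 genes and a threshold of 0.1. Every comparison with the non-diabetic Wt group uses the same 3 animals, and the pairwise comparisons are therefore not independent of each other.

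No gene of the set passed the threshold in any of the 9 comparisons, and by edgeR 0% of all tested genes did so in each of them. By DESeq2 and by limma-voom with sample weights, which called 1.46% and 0.265% of genes for the averaged effect of maternal diabetes and 1.44% and 6.37% for maternal diabetes within Hif1a+/-, 0 of the 9 were called in any comparison. Over all genes, DESeq2 called 0.0148% within Wt, 0.0259% for genotype, 0.00369% for genotype in non-diabetic and 0.155% in diabetic offspring, 0.453% for diabetic Hif1a+/- against non-diabetic Wt, 0.76% for any difference and 0% for the interaction. limma-voom called 0.0068% for genotype in diabetic offspring, 0.0136% for diabetic Hif1a+/- against non-diabetic Wt and 0% in the rest. At an unadjusted edgeR p under 0.05, 4 of the 9 genes stood out for maternal diabetes, where 11.3% of all tested genes did so. These were Agt and Npr3 with higher and Nos3 and Npr1 with lower means after diabetic pregnancy. With no filter on low counts the count was 6, with Agtr1a and Ednrb added, beside 9.1% of all genes. By limma-voom it was 4, with Agtr1a in place of Agt, beside 16.1% of all genes. Leaving out 1 animal at a time gave 1 to 4 such genes. The count was 3 without animal 72 (Agt, Nos3 and Npr3, beside 9.58% of all genes), 2 without animal 7, 14, 44, 50 or 66, and 1, Agt, without non-diabetic Wt animal 42. For the averaged genotype effect the count was 0 of 9, against 2.69% of all genes, and for the interaction of genotype and maternal diabetes it was 0 of 9, against 2.52%. Without diabetic Wt animal 80 the genotype count was 3 (Agtr1a, Ednra and Ednrb, beside 6.82% of all genes), without animal 66 it was 1 (Ednra), with no filter on low counts it was 2 (Ednra and Ednrb) and by limma-voom it was 1 (Ednra). The interaction count was 1, Npr3, without animal 25, 44 or 80 and by limma-voom. The median log2 fold change of the 9 genes was -0.08 for both maternal diabetes and genotype, beside a median of -0.00 over all tested genes in each comparison.

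**Figure D1:**
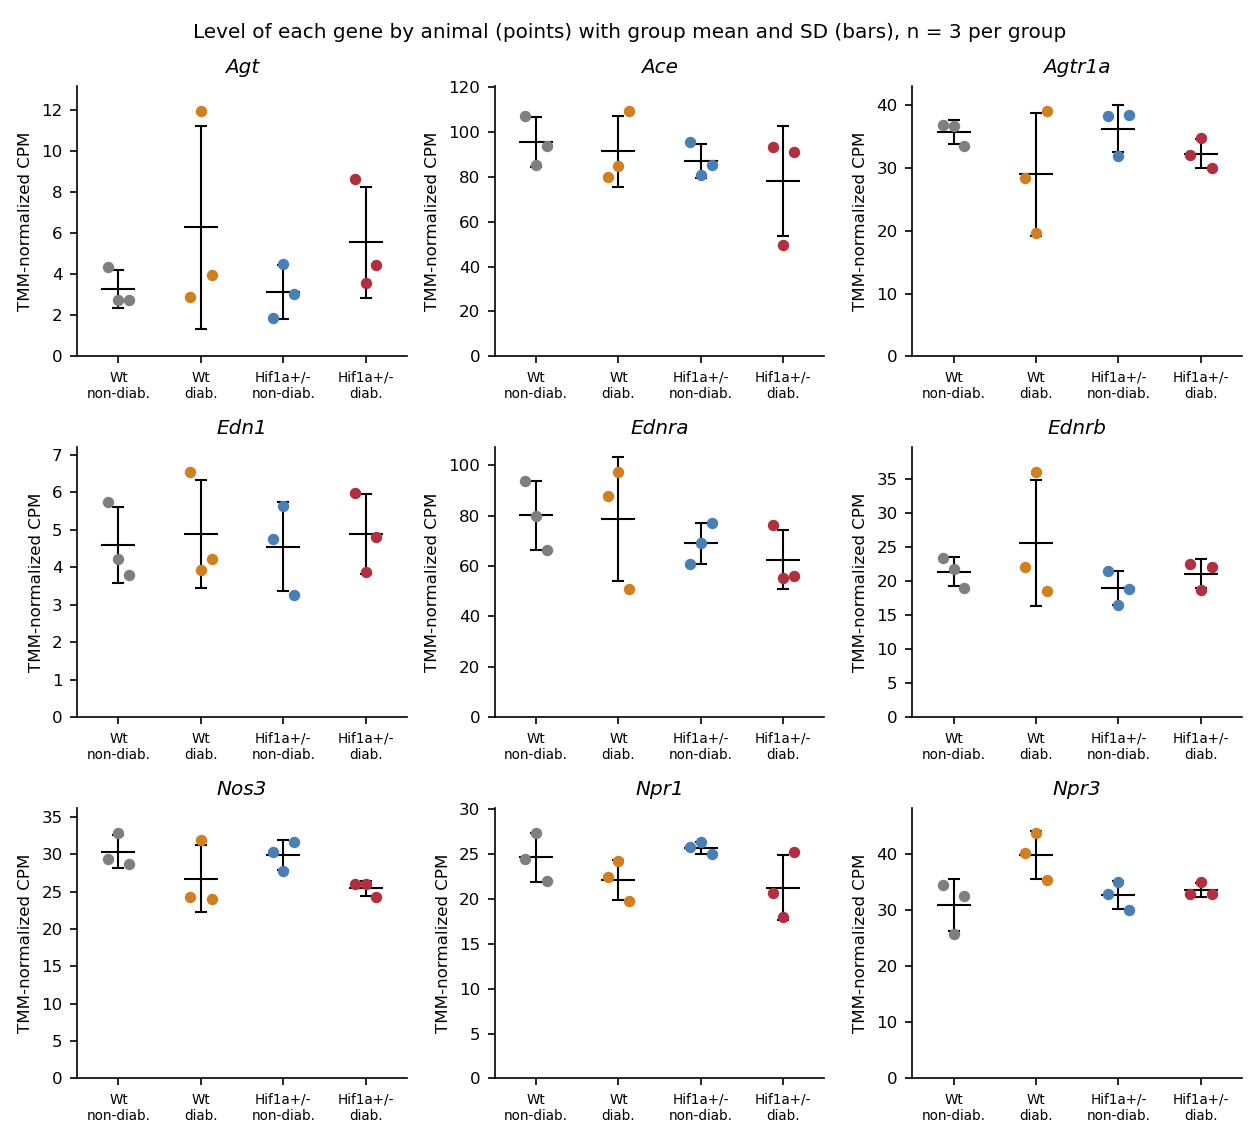
TMM-normalized CPM of the 9 genes in each of the 12 left ventricles (points), with the mean and SD of the 3 animals of each group (bars). The high Agt values are Wt animal 7 at 12.0 CPM and Hif1a+/- animal 66 at 8.60 CPM, and all 3 diabetes-exposed Wt ventricles lie above the 3 non-diabetic Wt ventricles for Npr3.

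Agt, the precursor of all angiotensins, lies on chr8:124556534-124569706 of GRCm38 on the minus strand. It measured 4.36, 2.73 and 2.74 CPM in Wt animals 25, 42 and 89 from non-diabetic pregnancies and 2.91, 12.0 and 3.94 CPM in Wt animals 50, 7 and 80 from diabetic ones. In Hif1a+/- ventricles it measured 1.87, 4.51 and 3.02 CPM in animals 14, 32 and 44 from non-diabetic pregnancies and 8.60, 3.56 and 4.46 CPM in animals 66, 72 and 77 from diabetic ones. Animals 7 and 66, both from diabetic pregnancies, stood above every other ventricle, and the remaining 4 diabetes-exposed ventricles overlapped the non-diabetic range. The order of group means was diabetic Wt (6.27 ± 4.95, SD, n = 3), diabetic Hif1a+/- (5.54 ± 2.69), non-diabetic Wt (3.28 ± 0.939) and non-diabetic Hif1a+/- (3.13 ± 1.32). Only the step between diabetic Hif1a+/- and non-diabetic Wt was larger than the pooled SD of its 2 groups, and their samples overlapped.

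Averaged over genotypes, Agt was 1.90-fold higher after diabetic pregnancy (95% interval 1.12 to 3.22), a log2 fold change of 0.93 ± 0.35 (SE) with an edgeR adjusted p of 0.379. The value was of like size in both genotypes, 0.98 ± 0.50 in Wt (edgeR adjusted p = 1.00) and 0.87 ± 0.50 in Hif1a+/- (edgeR adjusted p = 0.488). It rested on the 2 high animals. Without animal 7 the averaged log2 fold change was 0.48 and the difference within Wt was 0.08, and without animal 66 the difference within Hif1a+/- was 0.38. Agt was the gene of the set whose call depended on the filter. With no filter on low counts the same edgeR test on 27093 genes gave a log2 fold change of 0.94 ± 0.18 with an adjusted p of 0.000132, among 593 genes called, and the cause of the smaller SE was not tested. DESeq2 gave 0.89 with an adjusted p of 0.401, limma-voom gave 0.58 with an adjusted p of 0.396, and adjusted p-values over the alternatives other than leaving out an animal ran from 0.000132 to 0.426.

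The 250 bases before the RefSeq start of Agt (GRCm38.p6, chr8:124569707-124569956, minus strand) overlap no GENCODE exon and are shown because Agt had the largest difference of the set. They hold neither ACGTG nor GCGTG, the core letters of the HIF binding motif, on either strand.
Agt: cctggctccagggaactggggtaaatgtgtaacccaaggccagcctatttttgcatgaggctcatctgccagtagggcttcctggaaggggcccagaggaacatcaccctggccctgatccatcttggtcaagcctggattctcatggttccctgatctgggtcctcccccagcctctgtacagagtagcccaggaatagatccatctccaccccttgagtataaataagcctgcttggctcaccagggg

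Ace, which converts angiotensin I to angiotensin II (chr11:105967945-105989964, plus strand), measured 107, 85.1 and 93.7 CPM in non-diabetic Wt and 80.0, 84.9 and 110 CPM in diabetic Wt ventricles. It measured 95.5, 80.6 and 85.4 CPM in non-diabetic Hif1a+/- and 93.3, 49.7 and 90.9 CPM in diabetic Hif1a+/- ventricles. The value of animal 72 was far below the other 11, which overlapped between all groups. The group means ran in the order non-diabetic Wt (95.3 ± 11.2, SD, n = 3), diabetic Wt (91.5 ± 15.8), non-diabetic Hif1a+/- (87.2 ± 7.59) and diabetic Hif1a+/- (77.9 ± 24.5), and no neighbours in that order differed by more than their pooled SD. The averaged diabetes log2 fold change was -0.11 ± 0.14 (edgeR adjusted p = 0.771) and turned to 0.02 without animal 72. The genotype log2 fold change was -0.18 ± 0.14 (edgeR adjusted p = 0.999), and -0.06 without it.

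Agtr1a, the gene for the type 1 angiotensin receptor (chr13:30336441-30382867, plus strand), measured 36.9, 36.7 and 33.5 CPM in non-diabetic Wt and 28.3, 19.6 and 39.1 CPM in diabetic Wt ventricles. In Hif1a+/- ventricles it measured 38.3, 31.9 and 38.4 CPM after non-diabetic and 32.1, 34.8 and 30.0 CPM after diabetic pregnancy. Diabetes-exposed Wt animals held both the lowest and the highest value of the 12. The order of means was non-diabetic Hif1a+/- (36.2 ± 3.75, SD, n = 3), non-diabetic Wt (35.7 ± 1.89), diabetic Hif1a+/- (32.3 ± 2.37) and diabetic Wt (29.0 ± 9.80), in which only the step from non-diabetic Wt to diabetic Hif1a+/- passed the pooled SD, with overlapping samples. Agtr1a was 0.849-fold as high after diabetic pregnancy (95% interval 0.701 to 1.03), a log2 fold change of -0.24 ± 0.13 (edgeR adjusted p = 0.501). That value was -0.12 without animal 7, the animal with the lowest Agtr1a and the highest Agt level. Agtr1a and Agt had a Pearson r of -0.70 on the log2 scale across the 12 ventricles, animal 7 included. It is given as a description of 12 libraries that share 1 normalization.

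Edn1, the precursor of endothelin 1 (chr13:42301476-42307990, plus strand), was the gene of the set with the least difference between groups. It ranged from 3.80 to 5.73 CPM in non-diabetic Wt, 3.92 to 6.55 CPM in diabetic Wt, 3.27 to 5.63 CPM in non-diabetic Hif1a+/- and 3.87 to 5.98 CPM in diabetic Hif1a+/- ventricles. The 4 ranges overlapped almost fully, and no neighbours among the group means, which ran from 4.55 to 4.90 CPM, differed by more than their pooled SD. The averaged diabetes difference was 1.08-fold (95% interval 0.822 to 1.42) and the averaged genotype difference was 1.00-fold (95% interval 0.765 to 1.32), on 65 to 233 counts per library. Its diabetes difference turned sign without diabetic Wt animal 50, at -0.02 on the log2 scale.

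Ednra, the gene for the constricting type A receptor (chr8:77663031-77724464, minus strand), measured 93.8, 80.0 and 66.5 CPM in non-diabetic Wt and 87.7, 97.4 and 50.7 CPM in diabetic Wt ventricles. It measured 60.9, 69.1 and 76.9 CPM in non-diabetic Hif1a+/- and 76.1, 55.2 and 56.1 CPM in diabetic Hif1a+/- ventricles. The Wt values spanned the lowest and the highest of the 12, and the Hif1a+/- values lay between them. The means ran in the order non-diabetic Wt (80.1 ± 13.6, SD, n = 3), diabetic Wt (78.6 ± 24.7), non-diabetic Hif1a+/- (69.0 ± 8.03) and diabetic Hif1a+/- (62.5 ± 11.8), with no step beyond the pooled SD of its groups. Ednra had the largest genotype difference of the set, 0.828-fold in Hif1a+/- against Wt (95% interval 0.663 to 1.03), a log2 fold change of -0.27 ± 0.15 (edgeR adjusted p = 0.999). The diabetes log2 fold change was -0.08 ± 0.15 (edgeR adjusted p = 0.847) and turned to 0.04 without diabetic Wt animal 80.

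Ednra differed between ventricles together with markers of vascular smooth muscle, the cells in which the type A receptor is known to act. The summed CPM of Acta2, Tagln, Myh11, Cnn1 and Myocd ran from 209 to 382 with a gap between 246 and 303. In the 5 ventricles below the gap Ednra measured 50.7 to 66.5 CPM, and in the 7 above it 69.1 to 97.4 CPM, so the 2 sets did not overlap. Each set held animals of both genotypes and both pregnancies. Because the libraries fell into these 2 sets, 1 correlation over all 12 is not given. Within the 7 ventricles above the gap, r was 0.39 (exact two-sided permutation p = 0.449), and 5 were too few for a correlation. Averaged over pregnancies, each of the 5 markers also had a lower mean in Hif1a+/-, with a median log2 fold change of -0.31. Of them, 1 was at an unadjusted p under 0.05 and 0 passed the threshold. Their mean sum was lower in Hif1a+/- only after diabetic pregnancy, at 259 ± 38.5 CPM (SD) against 308 ± 89.1 CPM in Wt. After non-diabetic pregnancy it was 290 ± 46.9 CPM in Hif1a+/- and 283 ± 57.8 CPM in Wt, while mean Ednra was 69.0 and 80.1 CPM. The part of smooth muscle content in the Ednra values was not tested, and in whole ventricle fewer cells of a type cannot be told apart from less RNA per cell. Over 108 relations between the 9 genes and 12 cell type marker lists, 2 had a Pearson adjusted p under 0.1, both for Ednra. Beside smooth muscle, the other was a negative relation with the 7 fibroblast markers (Pearson r = -0.81, two-sided permutation p = 0.00142, adjusted p = 0.0767, Spearman rho = -0.72, permutation p = 0.0105, adjusted p = 0.373). Without the 2 libraries farthest from the median fibroblast level r was -0.70. Animals 89, 80, 72 and 77, all below the smooth muscle gap, had the highest fibroblast sums, 1379 to 1714 CPM. All others had 1270 CPM or less, among them animal 14, which also lay below the gap. The fibroblast relation therefore shares much of the same split of libraries. Ednra also had a Pearson r of 0.71 with the endothelial and -0.73 with the adipocyte markers (two-sided permutation, adjusted p = 0.179 for both). With the macrophage markers r was -0.59 (two-sided permutation, adjusted p = 0.400).

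**Figure D2:**
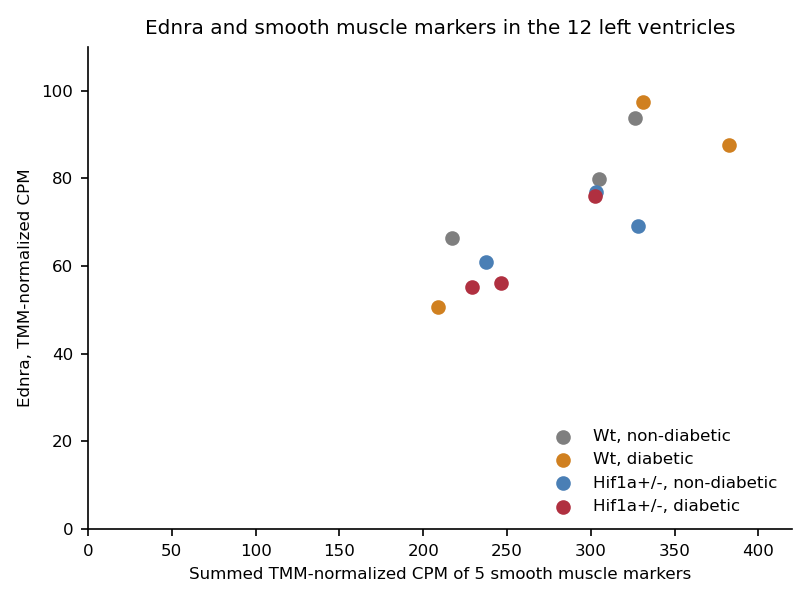
Ednra level (TMM-normalized CPM, y axis) against the summed TMM-normalized CPM of 5 smooth muscle markers (x axis) in the 12 left ventricles, coloured by group. The 5 ventricles with marker sums of 246 CPM or less have Ednra at 66.5 CPM or less, and the 7 with sums of 303 CPM or more have Ednra at 69.1 CPM or more.

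Ednrb, the gene for the type B receptor (chr14:103814625-103844402, minus strand), measured 23.4, 21.8 and 19.1 CPM in non-diabetic Wt and 22.2, 36.2 and 18.6 CPM in diabetic Wt ventricles. In Hif1a+/- ventricles it measured 21.5, 16.5 and 18.9 CPM after non-diabetic and 22.6, 18.7 and 22.1 CPM after diabetic pregnancy. Animal 7, which was also the highest for Agt, was the one high value, and the other 11 overlapped between all groups. The means ran from diabetic Wt (25.6 ± 9.29, SD, n = 3) through non-diabetic Wt (21.4 ± 2.19) and diabetic Hif1a+/- (21.2 ± 2.14) to non-diabetic Hif1a+/- (19.0 ± 2.52), with no step beyond the pooled SD. The diabetes log2 fold change was 0.21 ± 0.14 (edgeR adjusted p = 0.567) and was 0.05 without animal 7. The genotype log2 fold change was -0.23 ± 0.14 (edgeR adjusted p = 0.999), and -0.06 without that animal. Animal 7 also had the highest summed level of the 8 endothelial markers, 1267 CPM against 917 to 1134 CPM in the other 11, and the part of endothelial content in its Ednrb value was not tested.

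The RefSeq table of promoters (GRCm38.p6) held 8 start windows for 7 of the 9 genes. ACGTG or GCGTG was found on either strand in the windows of Ednrb and Npr1, that is in 2 of 7 genes, while 38.6% of all 32851 promoter windows of the same length held at least 1 of these motifs. These letters mark a possible HIF core and are no evidence of binding. The Ednrb window (chr14:103843702-103843951, minus strand) lies inside the longer GENCODE gene but in none of its exons. The 5 capitals are the motif read on the opposite strand, and they begin 99 bases before the RefSeq start.
Ednrb: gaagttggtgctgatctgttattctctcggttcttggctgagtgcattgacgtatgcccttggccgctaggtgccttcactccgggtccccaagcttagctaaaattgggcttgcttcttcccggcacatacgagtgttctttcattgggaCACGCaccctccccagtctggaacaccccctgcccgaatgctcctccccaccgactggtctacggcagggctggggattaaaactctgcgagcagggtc

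Nos3, the endothelial enzyme that makes the vessel-relaxing gas nitric oxide (chr5:24364810-24384474, plus strand), measured 29.4, 32.9 and 28.8 CPM in non-diabetic Wt and 24.3, 32.0 and 24.0 CPM in diabetic Wt ventricles. It measured 30.3, 27.8 and 31.7 CPM in non-diabetic Hif1a+/- and 26.0, 26.1 and 24.3 CPM in diabetic Hif1a+/- ventricles. Of the 6 diabetes-exposed ventricles, 5 lay below all 6 non-diabetic ones, and Wt animal 7 lay among the non-diabetic values. The means were ordered non-diabetic Wt (30.4 ± 2.24, SD, n = 3), non-diabetic Hif1a+/- (29.9 ± 1.98), diabetic Wt (26.8 ± 4.52) and diabetic Hif1a+/- (25.4 ± 1.04), and no neighbours in that order differed by more than their pooled SD. Nos3 was 0.867-fold as high after diabetic pregnancy (95% interval 0.769 to 0.978), a log2 fold change of -0.21 ± 0.08 (edgeR adjusted p = 0.388). The value stayed between -0.27 and -0.17 when each animal was left out in turn. The genotype log2 fold change was -0.05 ± 0.08 (edgeR adjusted p = 0.999), and 0.02 without animal 7.

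Within Hif1a+/-, the 3 diabetes-exposed ventricles lay below the 3 non-diabetic ones for Nos3 (log2 fold change -0.23 ± 0.11, edgeR adjusted p = 0.433). Nos3 was the 1 gene of 9 whose groups did not overlap there, in a comparison in which 24.4% of all tested genes did not overlap. Against non-diabetic Wt, the diabetes-exposed Hif1a+/- ventricles were likewise all lower for Nos3 alone among the 9 (-0.25 ± 0.11, edgeR adjusted p = 0.552), where 14.6% of all tested genes did not overlap. It was also the 1 gene of 9 at an unadjusted p under 0.05 there, beside 8.85% of all tested genes. That count was 0 without animal 72, 14, 25, 32, 42 or 44, and Nos3 gave way to Ednra without animal 66 and to Npr1 without animal 77. With no filter on low counts the genes were Ace, Agt and Ednra. The 8 endothelial markers summed to 1011 to 1040 CPM in diabetic and 1031 to 1134 CPM in non-diabetic Hif1a+/- ventricles. Over all 12 ventricles Nos3 and this sum had a Pearson r of 0.66 (two-sided permutation p = 0.0152, adjusted p = 0.274) and a Spearman rho of 0.67 (permutation p = 0.0200, adjusted p = 0.373), and r was 0.48 without the 2 libraries farthest from the median sum. The part of endothelial content in the Nos3 values was not tested. The median log2 fold change of the 8 markers for maternal diabetes was -0.03, with 3 of 8 at an unadjusted p under 0.05 and 0 past the threshold.

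Npr1, the guanylate cyclase receptor that carries the natriuretic peptide signal into the cell (chr3:90450591-90465866, minus strand), measured 24.5, 27.4 and 22.0 CPM in non-diabetic Wt and 22.4, 24.2 and 19.8 CPM in diabetic Wt ventricles. In Hif1a+/- ventricles it measured 25.8, 26.4 and 25.0 CPM after non-diabetic and 20.6, 18.0 and 25.2 CPM after diabetic pregnancy. Diabetes-exposed means were lower in both genotypes, with overlap in each. The order was non-diabetic Hif1a+/- (25.7 ± 0.665, SD, n = 3), non-diabetic Wt (24.6 ± 2.70), diabetic Wt (22.1 ± 2.24) and diabetic Hif1a+/- (21.3 ± 3.66), and only the step from non-diabetic to diabetic Wt passed the pooled SD. Npr1 was 0.863-fold as high after diabetic pregnancy (95% interval 0.755 to 0.986), a log2 fold change of -0.21 ± 0.09 (edgeR adjusted p = 0.420). It was -0.15 ± 0.13 in Wt (edgeR adjusted p = 1.00) and -0.28 ± 0.13 in Hif1a+/- (edgeR adjusted p = 0.415). Npr1 was the 1 gene of 9 at an unadjusted p under 0.05 within Hif1a+/-, where 12% of all tested genes were. The count was 0 by DESeq2, with its size factors in edgeR and without animal 72, 14, 25, 32, 42, 44, 50 or 66, and Npr1 gave way to Agt and Nos3 without animal 7. Without animal 72, which had the lowest Npr1 value, the difference in Hif1a+/- was -0.16 and the averaged one -0.15. The averaged genotype difference was 1.00-fold (95% interval 0.876 to 1.14).

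The window before the RefSeq start of Npr1 (chr3:90465867-90466116, minus strand) overlaps no GENCODE exon. The 5 capitals are again the motif on the opposite strand, here beginning 218 bases before the start.
Npr1: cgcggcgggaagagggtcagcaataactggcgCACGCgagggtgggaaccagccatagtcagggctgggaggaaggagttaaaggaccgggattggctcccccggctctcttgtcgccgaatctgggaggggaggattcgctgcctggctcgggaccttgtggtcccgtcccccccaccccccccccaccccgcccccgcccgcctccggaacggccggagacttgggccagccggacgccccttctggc

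Npr3, the receptor that clears natriuretic peptides (chr15:11839896-11907287, minus strand), measured 34.5, 25.7 and 32.5 CPM in non-diabetic Wt and 40.2, 43.8 and 35.4 CPM in diabetic Wt ventricles. It measured 32.9, 35.0 and 30.0 CPM in non-diabetic Hif1a+/- and 32.8, 34.9 and 32.9 CPM in diabetic Hif1a+/- ventricles. The 3 diabetes-exposed Wt animals were the 3 highest of the 12. The order was diabetic Wt (39.8 ± 4.20, SD, n = 3), diabetic Hif1a+/- (33.5 ± 1.21), non-diabetic Hif1a+/- (32.6 ± 2.55) and non-diabetic Wt (30.9 ± 4.59). The step from diabetic Wt to diabetic Hif1a+/- was the only one past the pooled SD, and the samples of those groups did not overlap.

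In Wt, Npr3 was 1.29-fold higher after diabetic pregnancy (95% interval 1.09 to 1.53), a log2 fold change of 0.37 ± 0.12. Over all genes the edgeR adjusted p was 1.00. Npr3 was the 1 gene of 9 at an unadjusted p under 0.05 in this comparison, where 2.78% of all tested genes were, and the 1 gene whose Wt groups did not overlap, where 5.54% did not. In Hif1a+/- the same difference was 1.03-fold (95% interval 0.866 to 1.22, edgeR adjusted p = 0.910). The difference between these effects, the interaction, was -0.33 ± 0.16 on the log2 scale (edgeR adjusted p = 0.998), so a different response of the genotypes was not established. It ranged from -0.41 to -0.20 when each animal was left out, the latter without non-diabetic Wt animal 42, which had the lowest Npr3 value.

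Between diabetes-exposed animals, Npr3 was 0.841-fold as high in Hif1a+/- as in Wt (95% interval 0.709 to 0.998, edgeR adjusted p = 0.862), again the 1 gene of 9 at an unadjusted p under 0.05, where 5.35% of all tested genes were, and the 1 without overlap, where 7.94% were. The count at an unadjusted p under 0.05 was 0 by limma-voom and without animal 72, 7, 14, 32, 44, 50, 77 or 89. Without animal 66, and with no filter on low counts, it was Ednra alone, and without animal 80 it was 4 (Agtr1a, Ednra, Ednrb and Npr3), beside 14.3% of all tested genes. Averaged over genotypes, the Npr3 log2 fold change for diabetic pregnancy was 0.20 ± 0.08 (95% interval 0.03 to 0.38, edgeR adjusted p = 0.400). Npr3 was also the gene of the set with the smallest p for any difference among the 4 groups (edgeR adjusted p = 0.781), where 6% of all tested genes were at an unadjusted p under 0.05. Without animal 7 or 50 Npr3 was no longer among the genes at that level, and without animal 80 the count was 4 (Agtr1a, Ednra, Ednrb and Npr3). Of the endocardial markers Plvap, Nfatc1, Vwf and Tmem108, 4 of 4 had higher means after diabetic pregnancy, with a median log2 fold change of 0.20, 1 at an unadjusted p under 0.05 and 0 past the threshold. Their sum was 124 to 165 CPM in diabetic and 106 to 159 CPM in non-diabetic Wt ventricles. In Hif1a+/- it was 168 to 200 CPM in diabetic and 113 to 131 CPM in non-diabetic ventricles. Over all 12 ventricles Npr3 and this sum had a Pearson r of 0.32 (two-sided permutation p = 0.314, adjusted p = 0.759). The part of endocardial content in the Npr3 values was not tested.

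**Figure D3:**
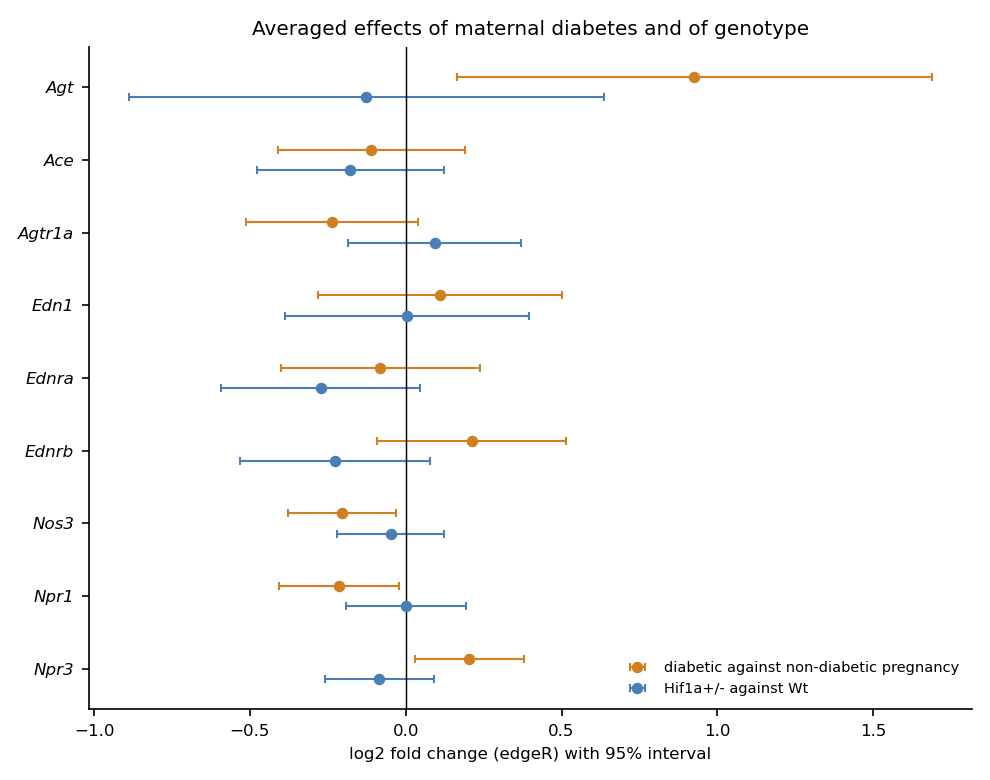
Log2 fold change of the 9 genes (edgeR, with 95% intervals) for diabetic against non-diabetic pregnancy averaged over genotypes (orange) and for Hif1a+/- against Wt averaged over pregnancies (blue). Intervals for maternal diabetes leave out 0 for Agt, Nos3, Npr1 and Npr3, none of which passed the adjusted threshold, and all 9 genotype intervals include 0.

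**Figure D4:**
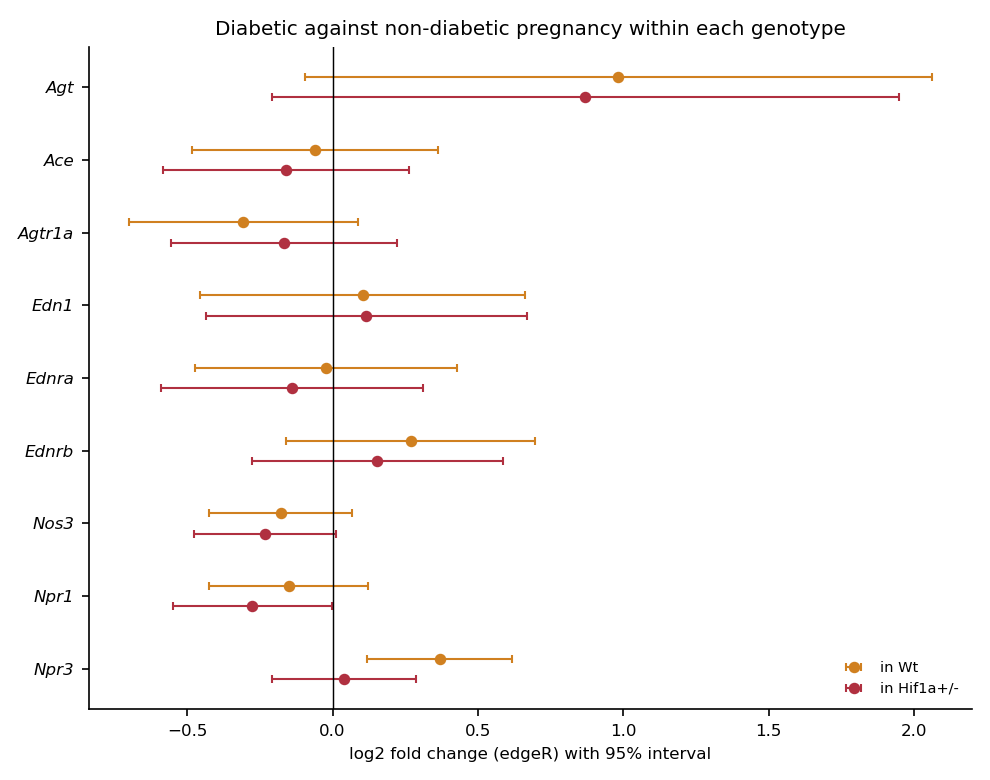
Log2 fold change of the 9 genes for diabetic against non-diabetic pregnancy (edgeR, with 95% intervals) in Wt (orange) and in Hif1a+/- (red). The points of each gene lie on the same side of 0 in both genotypes, and Npr3 stands at 0.37 in Wt and 0.04 in Hif1a+/-.

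The effects of maternal diabetes had the same sign in both genotypes for all 9 genes in the edgeR fit of 12 libraries, as the plot of the effects by genotype shows. The share of all tested genes with a shared sign is not given, so this count is not read as a property of the set. Within each genotype, the omission of 1 animal in turn was computed for Agt, Nos3, Npr1 and Npr3 only. Of these, only Npr3 in Hif1a+/- changed sign, to -0.01 without non-diabetic animal 44. For Ace, Edn1 and Ednra the effect averaged over genotypes changed sign when 1 animal was left out, so their shared sign rests on single animals. The interaction term was tested for each of them, and the smallest p was that of Npr3. Between non-diabetic Hif1a+/- and non-diabetic Wt, the estimated log2 fold changes of the 9 genes ran from -0.21 for Ednra to 0.08 for Npr3. There were 0 genes at an unadjusted p under 0.05 (0.959% of all tested genes) and 0 without overlap (4.81% of all tested genes). The 95% intervals were wide, at 0.434- to 2.09-fold for Agt, 0.674- to 1.48-fold for Edn1 and 0.630- to 1.18-fold for Ednra, so larger differences were not excluded.

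Of the other genes of the 6 pathways to which the set belongs, 48 of 61 passed the filter on low counts. The renin gene Ren1 was among those below it with at most 4 counts in a library, and the type 2 angiotensin receptor gene Agtr2 had 0 counts in all 12 and was not detectable at this depth. None of the 48 passed the threshold by edgeR or DESeq2 in any comparison. For maternal diabetes, 11 of the 48 were at an unadjusted edgeR p under 0.05, 5 with higher and 6 with lower means, beside the 11.3% of all tested genes. For genotype it was 1 of 48, beside 2.69% of all tested genes.

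The largest of these differences were those of Bdkrb2 and Edn3, on 11 to 53 and 15 to 109 counts per library. Bdkrb2, the bradykinin B2 receptor gene, whose ligand is broken down by angiotensin-converting enzyme, averaged 1.78 ± 0.758 CPM in non-diabetic and 0.843 ± 0.197 CPM in diabetic Wt, and 1.62 ± 0.236 and 1.03 ± 0.140 CPM in Hif1a+/- (SD, n = 3 each). Its averaged log2 fold change for maternal diabetes was -0.86 ± 0.23 (edgeR adjusted p = 0.275). Edn3, the endothelin 3 gene, measured 1.18 to 2.08 CPM in non-diabetic and 0.857 to 2.86 CPM in diabetic Wt, and 0.584 to 1.35 and 1.33 to 4.31 CPM in Hif1a+/-, a log2 fold change of 0.84 ± 0.35 (edgeR adjusted p = 0.422). Ece2, an endothelin-converting enzyme gene, had a log2 fold change of 0.28 ± 0.10 (edgeR adjusted p = 0.370). With no filter on low counts Bdkrb2 and Edn3 passed the threshold by edgeR (adjusted p = 0.0253 and 0.0216), as did Rgs2 (adjusted p = 5.35e-05). Within Hif1a+/-, limma-voom called Ece2 (log2 fold change 0.40, adjusted p = 0.0844) and Ide (-0.28, adjusted p = 0.0817).

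Of the peptide-degrading and peptide-processing enzymes, Enpep, which converts angiotensin II to angiotensin III, had a log2 fold change of -0.32 ± 0.14, Mme, the gene for neprilysin, -0.19 ± 0.09 and Ide, the insulin-degrading enzyme gene, -0.15 ± 0.07. The proprotein convertase gene Pcsk6 had one of 0.24 ± 0.10, and Atp6ap2, which encodes the (pro)renin receptor, one of 0.15 ± 0.06. The edgeR adjusted p-values for these 5 genes lay between 0.405 and 0.439. The ligand genes Nppa and Nppb, markers of a stressed heart, overlapped widely, Nppb at 178 to 539 CPM in non-diabetic and 194 to 485 CPM in diabetic ventricles. With no filter Nppb passed by edgeR within Hif1a+/- (log2 fold change -0.53, adjusted p = 0.0528).

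Downstream of the receptors, Prkg1, the cyclic GMP-dependent kinase that acts below nitric oxide and Npr1, had a log2 fold change of -0.37 ± 0.17 for maternal diabetes (edgeR adjusted p = 0.435). Rgs2, which shortens signals from Gq-coupled receptors such as those for angiotensin and endothelin, had one of 0.58 ± 0.24 (edgeR adjusted p = 0.410), and Rgs5, a regulator of the same family that is abundant in pericytes, one of -0.15 ± 0.07 (edgeR adjusted p = 0.433). For genotype the 1 gene at an unadjusted p under 0.05 was Gucy1a2, a soluble guanylate cyclase subunit gene, at -0.62 ± 0.25 (edgeR adjusted p = 0.999) and 11 to 28 counts per library.

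**Figure D5:**
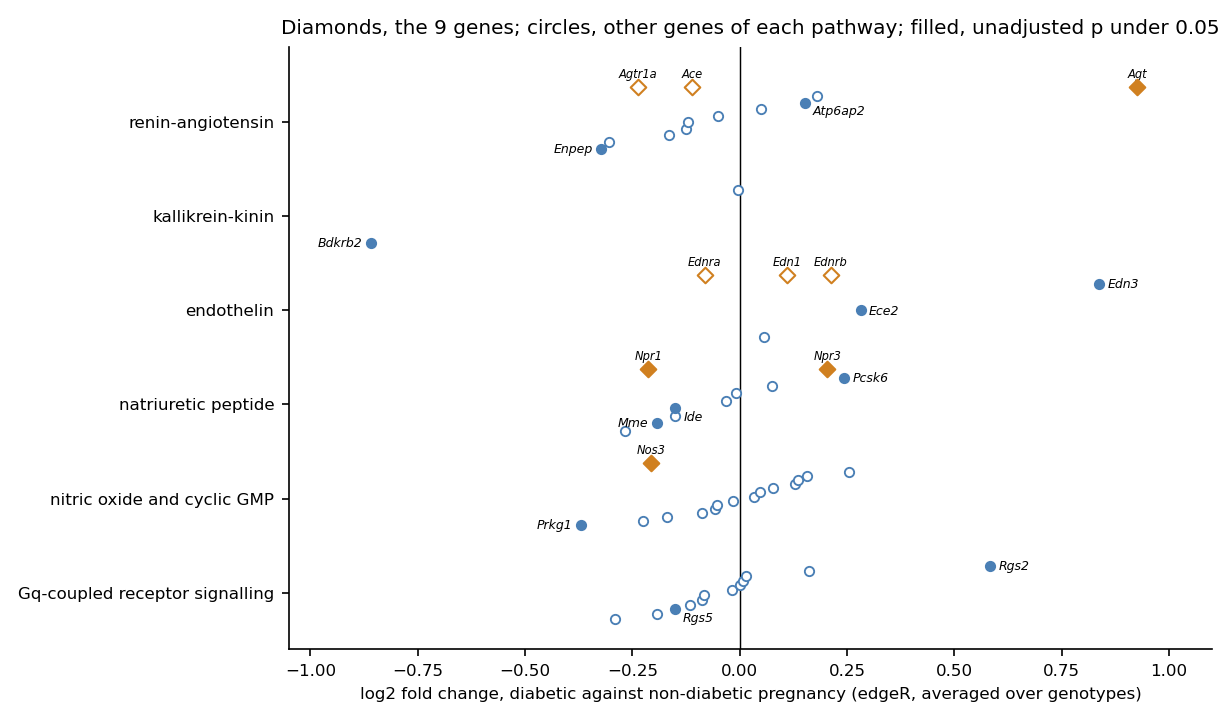
Log2 fold change for diabetic against non-diabetic pregnancy (edgeR, averaged over genotypes, x axis) of the 9 genes (diamonds) and of 48 other tested genes of 6 pathways (circles, 1 row per pathway); filled symbols have an unadjusted p under 0.05. Filled symbols lie on both sides of 0, from Bdkrb2 at -0.86 to Agt at 0.93, and none passed the adjusted threshold.

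The tested genes whose log2 CPM ran most closely with each gene over the 12 ventricles were found as a description, without a test, and the ventricles share their normalization. Nearest to Agt was Paqr4 (Pearson r = 0.93), to Ace Hsd11b1 (0.94), to Agtr1a Emp2 (0.91), to Edn1 Trnp1 (0.90), to Ednra Picalm (0.96), to Ednrb Sorbs3 (0.92), to Nos3 Ss18l1 (0.97), to Npr1 Fnbp1l (0.92) and to Npr3 Nomo1 (0.88). Next came Tmem201 and Fam161b for Agt, Cnmd and C7 for Ace, 5830405F06Rik and Grtp1 for Agtr1a, Adam22 and Lypla1 for Edn1, Gfod1 and Pvr for Ednra, Gramd1a and Nfatc1 for Ednrb, Prr14l and Unkl for Nos3, Blk for Npr1, and Crebl2 and Rbm10 for Npr3, at r from 0.84 to 0.96. Each was kept as the highest of 14706 tested genes. Among the 9 genes themselves, r ran from -0.76 for Agtr1a with Ednrb to 0.61 for Agt with Ednrb. Wt animal 7 had the highest Agt and Ednrb and the lowest Agtr1a level, and values of r without this animal are not given.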

How the data were processed

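Left ventricular RNA of 12 mice was sequenced from the 3′ end. The authors trimmed reads with Trimmomatic, removed ribosomal reads with SortMeRNA, aligned them with STAR 2.5.2b to GRCm38 and deposited read counts per GENCODE gene from htseq-count in union mode. The strand setting was not given in the sources used here. They also deposited DESeq2-normalized counts, a signal scaled by size factors of 0.716 to 1.72, used only as an alternative scale. Libraries held 16132442 to 39812939 counts, and 20.2 to 24.2% of reads were not given to a gene and stayed out of library sizes.

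Counts were tested with the quasi-likelihood test of edgeR 4.0.16 (R 4.3.3) with TMM scaling, the filterByExpr filter and 1 fit of the 4 groups (12 libraries, 8 residual degrees of freedom). Benjamini-Hochberg adjustment covered 14706 genes, with the study's threshold of 0.1. The biological coefficient of variation was 13.7%. DESeq2 1.42.0 and limma 3.58.1 (voom with sample weights) were alternatives, beside other scalings, filters and the omission of each animal. Tables and permutation tests (100000 resamples, or exact) used Python 3.11.15, pandas 2.3.3, scipy 1.17.1 and numpy 2.4.6. The scripts were tested on simulated data.

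All 9 genes are named. From each pathway list, up to 3 further genes with the smallest p for maternal diabetes and up to 2 for genotype could be named, with any past the threshold. Ren1, Agtr2, Nppa and Nppb were named after their values were seen. For each of the 9, the 3 genes with the highest Pearson r of log2 CPM (prior count 2) over 12 libraries were found, of which 1 is not reported here. The genes and lists were chosen with earlier results of these data known. Relations with marker lists, counts of groups that do not overlap, and the division of libraries by smooth muscle markers were chosen after seeing the data. Pathway genes numbered 61, of which 1 had no matching symbol and was not analysed here. Promoter windows are from RefSeq (GRCm38.p6).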

Additional observations from a re-analysis of the deposited data

How the results depend on the processing

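With no filter on low counts, 1 of the 9 genes (Agt) passed the threshold by edgeR for maternal diabetes (log2 fold change 0.94), within Wt (0.99), within Hif1a+/- (0.89), for diabetic Hif1a+/- against non-diabetic Wt (0.82) and for any difference. Of the other pathway genes, 3, 1, 3 and 3 passed for maternal diabetes, within Wt, within Hif1a+/- and for any difference, and limma-voom called 2 within Hif1a+/-. The cause was not tested. Every other alternative left 0 of the 9 genes past the threshold. With limma-voom the genotype log2 fold change changed sign for Agt (0.12), Edn1 (-0.067) and Npr1 (-0.013). Leaving out 1 animal in turn, values that changed sign ranged, for maternal diabetes, from -0.19 to 0.016 (Ace), -0.021 to 0.21 (Edn1) and -0.17 to 0.036 (Ednra). For genotype they ranged from -0.37 to 0.32 (Agt), -0.022 to 0.23 (Agtr1a), -0.084 to 0.14 (Edn1), -0.085 to 0.024 (Nos3) and -0.067 to 0.052 (Npr1). For Npr3 they ranged from -0.0083 to 0.10 for maternal diabetes within Hif1a+/- and from -0.043 to 0.16 for genotype in non-diabetic offspring. Of the single values recomputed, 649 kept their direction and side of the threshold, 24 changed sign, 3 (Agt with no filter) newly passed the threshold and 1 (the Agt ratio of means within Wt, without animal 7) moved by more than the spread between replicates.

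No paired analysis was possible because the groups share no replicate number, neither in the animal numbers of the titles, which all differ, nor in the labels' biological replicate field, which holds 1 value per group. With 3 animals a group, wide intervals limit what can be said of Agt most, whose lowest count was 48.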

Other observations

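The clearance receptor gene Npr3 and the signalling receptor gene Npr1 had means on opposite sides of the non-diabetic mean after diabetic pregnancy, and their count ratio within a library does not depend on library scaling. This ratio was chosen after the values of both genes were seen and is given without a test. In Wt ventricles it was 1.41, 0.939 and 1.47 after non-diabetic and 1.79, 1.81 and 1.79 after diabetic pregnancy. In Hif1a+/- ventricles it was 1.27, 1.33 and 1.20 after non-diabetic and 1.59, 1.94 and 1.30 after diabetic pregnancy. The 3 diabetic Wt values lay close together above all 6 non-diabetic ones, and the diabetic Hif1a+/- values overlapped the non-diabetic range through 1 animal, 77.

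All 6 macrophage markers had higher means after diabetic pregnancy, with a median log2 fold change of 0.51. Of them, 4 were at an unadjusted edgeR p under 0.05, beside 11.3% of all tested genes, and 0 passed the threshold. Their summed level was 148 to 242 CPM in diabetic and 135 to 196 CPM in non-diabetic Wt ventricles, with overlap. In Hif1a+/- ventricles it was 206 to 326 CPM after diabetic and 105 to 164 CPM after non-diabetic pregnancy, a comparison in which 24.4% of all tested genes did not overlap. Hemoglobin and Alas2 reads summed to 7323 CPM in non-diabetic Wt animal 25 and to 185 to 1771 CPM in the other 11.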
